A study of Saccharomyces cerevisiae with 26 samples.

Results

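The proteasome is the protease that degrades ubiquitin-tagged proteins in the cytosol and nucleus, and the 36 genes described here encode its parts in budding yeast. They were chosen by name: 14 genes of the 20S core (7 of the alpha ring, 7 of the beta ring), 18 of the 19S regulatory particle (6 ATPases and 4 other genes of its base, 8 of its lid), the transcription factor gene RPN4, and UMP1, BLM10 and ECM29, whose products build, activate or tether the core. All 36 were measured, each by 1 probe set, among 5445 genes tested.

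The 20S core is a barrel whose outer alpha rings gate the entry and whose inner beta rings hold the cutting sites. The 19S particle caps the barrel: its base binds ubiquitin and unfolds the substrate with a ring of ATPases, and its lid removes the ubiquitin. In yeast Rpn4 binds a shared promoter element of most proteasome genes and is itself a short-lived substrate of the proteasome, so that a lack of proteasome activity raises Rpn4 and with it the synthesis of new subunits.

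The 26 Affymetrix yeast arrays measured transcripts of haploid S288C cells, Mat-alpha, a standard laboratory strain, grown at 32.5 °C and pH 5.5 in synthetic defined medium. Cells held in 3 mm calcium alginate beads and fed 100 g/L glucose gave 18 arrays: 4 each at days 1, 3 and 5, and 3 each at days 10 and 17. Another 2 arrays are of day 0, a time set before immobilization by the titles and directly after it by the source names. The labels of day 0 give 100 g/L glucose and 3 mm beads, as for the bead days. Free cells gave 2 arrays each of stationary phase (batch culture, 72 h), of a chemostat (1 g/L glucose, dilution rate 0.15 per h, sampled at 72 h) and of log phase (batch culture begun at 10 g/L glucose, 12 h). These free cultures were anaerobic. The comparisons ask how bead-held cells, which are fed but hardly divide, differ from starved, slowly growing and fast growing free cells, and whether they change between day 1 and day 17.

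Values are log2 of the deposited ratio of a probe set to its own median over the 26 arrays. A value of 1 is therefore 2-fold above the gene's median, and levels cannot be compared between genes. Since each array's median lay near a ratio of 1, a shift shared by all transcripts cannot be seen, and fewer cells and less RNA per cell cannot be told apart. Each change is given on the log2 scale with its SE, from a limma model of all 5445 genes. Calling a gene changed took a Benjamini-Hochberg adjusted p below 0.05 and a difference of 2-fold or more, and calls by the adjusted p alone are given beside these. The labels do not tell whether arrays of 1 group stem from separate cultures. The p-values therefore speak of the spread between these samples only, and that spread may be technical.

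The arrays differed in quality. Beads and free cells had their RNA extracted by different published methods, so the effect of culture and that of extraction cannot be told apart. Day 0 was labelled with the extraction of beads, so the same holds for day 0 against free cells. A sign of RNA quality, the signal at the 3′ end less that at the 5′ end averaged over 6 control genes (the 3′ minus 5′ difference), had its highest group mean, 0.299, at bead day 17 and its lowest, -0.367, in log phase. The log2 ratio of a spike-in control, dap, also differed between arrays. It was -1.51, 0.34 and -4.94 at day 10 and 1.17, -5.20 and -4.98 at day 17. In stationary phase it was 2.00 and 2.52, and in log phase -1.34 and 0.02. Its bearing on the results was not tested. Between arrays of 1 day, the correlation taken across genes, as a description, fell to -0.491 at day 1, -0.340 at day 3 and -0.372 at day 5, whereas it was at least 0.779 within day 10, day 0 and each free culture and 0.0653 to 0.644 within day 17. These ratios are to medians over 26 arrays, 18 of them from beads, so bead arrays lie near the reference. The SD over all genes was 0.380 to 0.879 in bead arrays and 0.810 to 1.14 in free or day 0 arrays. A correlation of such ratios can be low where little spread is left, but replicates 2 and 3 of day 1 had SDs of 0.879 and 0.806. The cause of the low correlations was not tested, and they are not used to rank the groups by quality. The bead means average arrays that differ in this way. Results are given below with and without the bead arrays that matter.

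Apart from RPN4, the proteasome genes had narrow ranges. The range over the 9 group means had a median of 0.98 among the 35 other genes and of 1.64 among all genes. Each of the 35 had a range below that all-gene median, from 0.42 to 1.47. RPN4 had a range of 2.58, which 80.8% of all genes did not exceed. Day 10 in the beads was the highest group for 22 of the 36 genes, and day 0 or stationary phase was the lowest for 24 (13 and 11). The same counts were not taken over all genes. Groups of wide spread can hold more extremes of any gene set. The all-gene SD of group means was 0.70 at day 10, 0.89 at day 0 and 0.99 in stationary phase. It was 1.07 in log phase and 0.83 in the chemostat. The map of all 36 genes shows the low RPN4 columns of log phase, the paler rows of most subunits and the mixed rows of stationary phase.

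**Figure D1:**
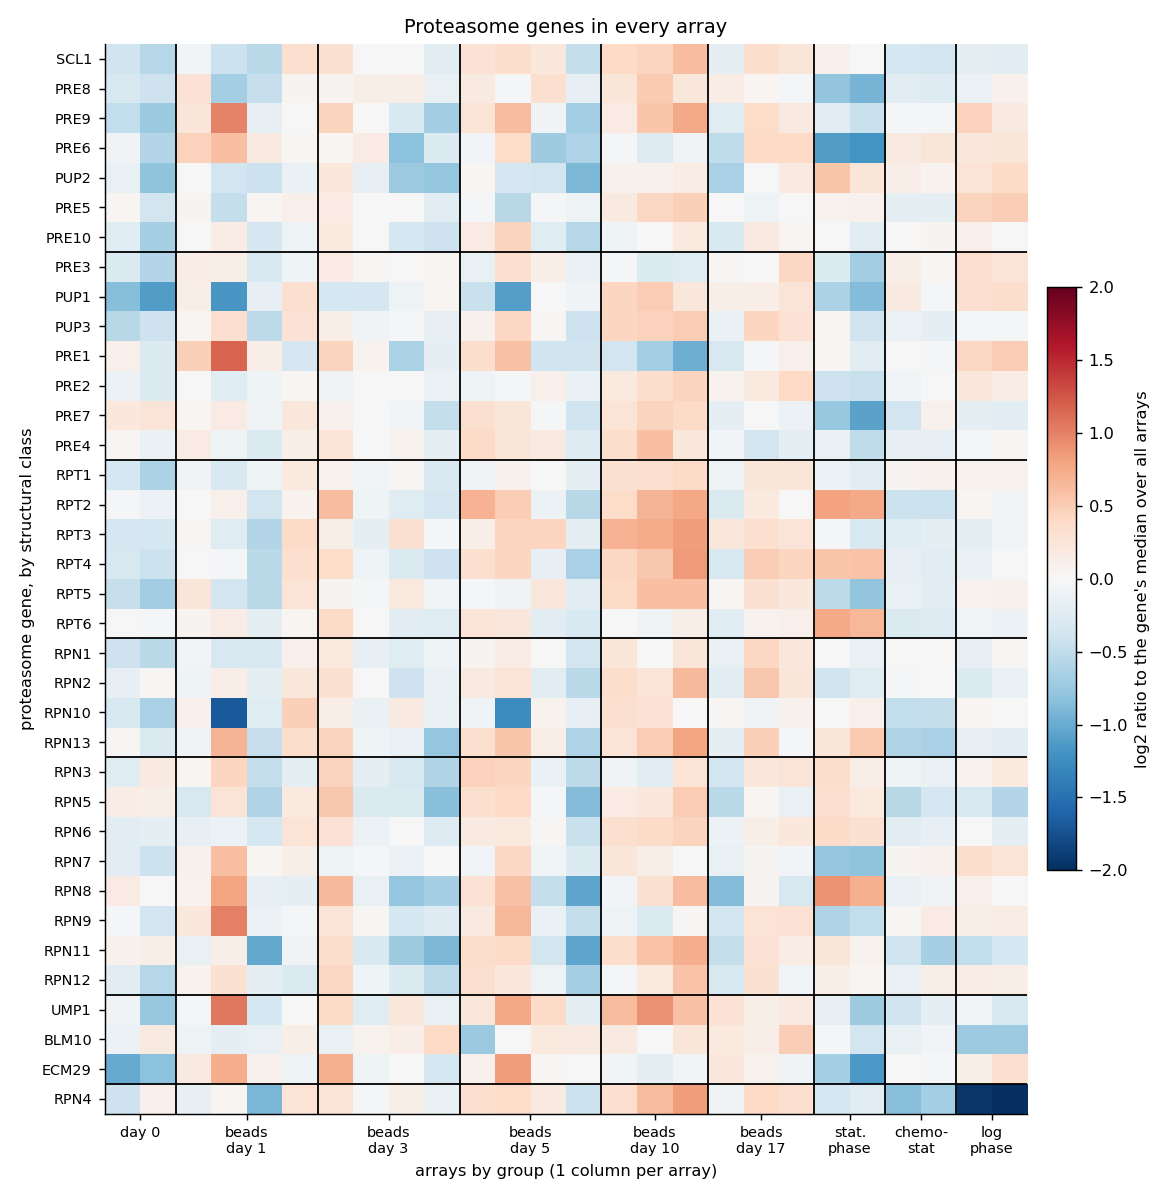
Log2 ratio to the gene's own median (colour) for the 36 proteasome genes (down) in each of the 26 arrays (across), with lines between groups and between structural classes. RPN4 in log phase is the darkest pair of cells, at -1.95 and -1.99, and stationary phase holds both deep blue cells (PRE6, ECM29) and red cells (RPT2, RPN8).

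RPN4, the transcriptional activator of the proteasome genes, had its lowest mean in log phase. Its log2 ratios were -0.42 and 0.11 at day 0, -0.16, 0.03, -0.92 and 0.27 at day 1, 0.27, -0.04, 0.12 and -0.13 at day 3, 0.33, 0.37, 0.18 and -0.42 at day 5, 0.34, 0.64 and 0.83 at day 10 and -0.07, 0.40 and 0.33 at day 17. In free cells they were -0.35 and -0.21 in stationary phase, -0.84 and -0.67 in the chemostat and -1.95 and -1.99 in log phase. Both log-phase arrays lay below all 24 others, and the chemostat arrays lay below all bead arrays except replicate 3 of day 1.

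Against the same 2 log-phase arrays, RPN4 stood 2.13 ± 0.24 higher in beads (mean of days 1 to 17, 4.38-fold, adjusted p = 8.78e-07), 1.81 ± 0.32 higher at day 0 (3.52-fold, adjusted p = 0.000142), 1.69 ± 0.32 higher in stationary phase (3.24-fold, adjusted p = 0.000228) and 1.22 ± 0.32 higher in the chemostat (2.32-fold, adjusted p = 0.0487). These 4 comparisons share their controls. Between the other groups RPN4 differed less. Beads stood 0.91 ± 0.24 above the chemostat, which passed the adjusted p (0.0061) but not the 2-fold minimum. The difference was 0.44 ± 0.24 between beads and stationary phase (adjusted p = 0.148) and 0.48 ± 0.32 between stationary phase and chemostat (adjusted p = 0.233), and neither passed. The call in beads held in all 37 alternatives, at 1.31 to 2.38. The chemostat call was lost in 24 of 34, among them without either chemostat array and without either log-phase array, so it rests on the exact set of arrays. Repeated quantile normalization ended the calls of day 0, stationary phase and chemostat, at 1.00, 0.94 and 0.45. Calls over all genes then numbered 657, 623 and 10, against 1980, 2421 and 124 without it.

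**Figure D2:**
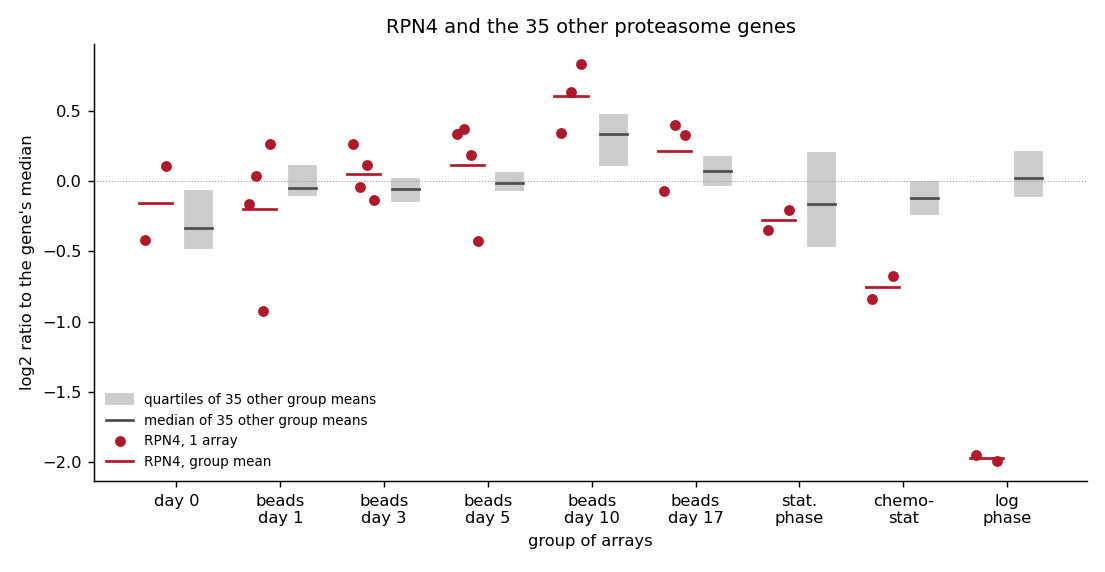
Log2 ratio to the gene's median (vertical) by group: red points are RPN4 in single arrays and red lines its group means, while grey boxes span the quartiles and dark lines the median of the 35 other genes' group means. RPN4 averages -1.97 in log phase, where the median of the other genes is 0.02.

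In beads the subunit genes lay close to their log-phase levels. Here RPN4 was the 1 proteasome gene called higher (15.9% of all genes were), and 0 of 36 were called lower (14.7% of all genes). Among the 35 others limma made 0 calls at 2-fold, with 3 at an unadjusted p under 0.05 (3035 of 5445 genes in all). Their median change was 0.05 and their median absolute change 0.17, against 0.65 over all genes. For 30 of the 35 the 95% interval of the change lay within 2-fold in both directions, which held for 35.6% of all genes. Without the fold minimum BLM10 joined RPN4 as higher (2 of 36, against 24.9% of all genes) and PRE5, an alpha-ring gene, was lower at -0.46 ± 0.17 (1 of 36, against 24.8%; adjusted p = 0.0299).

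By class, the changes between beads and log phase had medians of -0.17 in the alpha ring, -0.11 in the beta ring, 0.11 in the ATPases, 0.19 in the other base genes and -0.10 in the lid. For each class the gene with the greatest and the gene with the least absolute change follow with their values in every array.

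In the alpha ring PUP2 changed most and PRE8 least. PUP2 had log2 ratios of -0.15 and -0.80 at day 0, 0.01, -0.38, -0.43 and -0.13 at day 1, 0.21, -0.17, -0.72 and -0.77 at day 3, 0.03, -0.34, -0.37 and -0.90 at day 5, 0.08, 0.09 and 0.15 at day 10 and -0.64, -0.01 and 0.17 at day 17. In free cells it stood at 0.55 and 0.24 in stationary phase, 0.14 and 0.07 in the chemostat and 0.27 and 0.38 in log phase. All 18 bead arrays lay below both log-phase arrays, which adds no support, since PUP2 was picked by this change. The change of -0.53 ± 0.25 had an adjusted p of 0.0801 and was not called. PRE8 had -0.32 and -0.41 at day 0, 0.28, -0.68, -0.45 and 0.06 at day 1, 0.06, 0.12, 0.13 and -0.14 at day 3, 0.18, -0.04, 0.33 and -0.17 at day 5, 0.24, 0.52 and 0.22 at day 10 and 0.16, 0.04 and -0.05 at day 17. Its values were -0.80 and -0.92 in stationary phase, -0.22 and -0.27 in the chemostat and -0.12 and 0.08 in log phase. The stationary-phase arrays were the lowest of all 26, and beads overlapped log phase, with a change of 0.08 ± 0.19 (adjusted p = 0.759).

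In the beta ring the same places were held by PRE1, a subunit without a cutting site, and PRE4. The log2 ratios of PRE1 were 0.11 and -0.27 at day 0, 0.48, 1.17, 0.13 and -0.33 at day 1, 0.44, 0.07, -0.63 and -0.18 at day 3, 0.35, 0.59, -0.39 and -0.40 at day 5, -0.37, -0.69 and -0.97 at day 10 and -0.32, -0.02 and 0.10 at day 17. Free cells gave 0.03 and -0.21 in stationary phase, 0.00 and -0.03 in the chemostat and 0.42 and 0.49 in log phase. Replicates 2 and 3 of day 10 were the lowest of the 26 arrays and replicate 2 of day 1 was the highest, so the change of -0.54 ± 0.30 against log phase (adjusted p = 0.142) averages days that differ. PRE4 measured 0.03 and -0.14 at day 0, 0.17, -0.08, -0.28 and 0.11 at day 1, 0.28, 0.01, 0.06 and -0.18 at day 3, 0.38, 0.24, 0.18 and -0.26 at day 5, 0.35, 0.60 and 0.23 at day 10 and -0.05, -0.36 and -0.18 at day 17. Without beads it measured -0.14 and -0.50 in stationary phase, -0.16 and -0.16 in the chemostat and -0.02 and 0.04 in log phase. Beads and log phase overlapped, and the change was 0.06 ± 0.17 (adjusted p = 0.803).

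Of the ATPases, which form the unfolding ring, RPT3 changed most and RPT1 least. RPT3 reached -0.33 and -0.35 at day 0, 0.02, -0.24, -0.58 and 0.38 at day 1, 0.12, -0.17, 0.30 and -0.03 at day 3, 0.14, 0.42, 0.42 and -0.18 at day 5, 0.69, 0.74 and 0.83 at day 10 and 0.22, 0.33 and 0.27 at day 17. Its free-cell values were -0.02 and -0.32 in stationary phase, -0.24 and -0.20 in the chemostat and -0.19 and -0.06 in log phase. All day 10 arrays exceeded the other 23, whereas day 1 and day 3 arrays lay on both sides of log phase, and the change over all bead days was 0.36 ± 0.19 (adjusted p = 0.126). RPT1 came to -0.35 and -0.63 at day 0, -0.07, -0.30, -0.08 and 0.20 at day 1, 0.06, -0.06, 0.02 and -0.31 at day 3, -0.06, 0.09, -0.01 and -0.18 at day 5, 0.31, 0.33 and 0.39 at day 10 and -0.11, 0.24 and 0.24 at day 17. For free cells the array values were -0.12 and -0.21 in stationary phase, 0.05 and 0.08 in the chemostat and 0.07 and 0.07 in log phase. Day 0 was the lowest group and day 10 the highest, and the mean of the bead days differed from log phase by -0.01 ± 0.15 (adjusted p = 0.961).

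Among the other base genes RPN13, a ubiquitin receptor, changed most and RPN1, which docks ubiquitin shuttles and the deubiquitinase Ubp6, least. RPN13 was measured at 0.03 and -0.29 at day 0, -0.07, 0.68, -0.46 and 0.36 at day 1, 0.45, -0.09, -0.14 and -0.78 at day 3, 0.32, 0.55, 0.14 and -0.61 at day 5, 0.27, 0.51 and 0.80 at day 10 and -0.19, 0.47 and -0.03 at day 17. The free cultures had 0.25 and 0.53 in stationary phase, -0.61 and -0.64 in the chemostat and -0.16 and -0.23 in log phase. At day 3 its arrays ran from -0.78 to 0.45, wider than the gap between the free cultures, and the change of 0.33 ± 0.29 was not called (adjusted p = 0.359). RPN1 gave -0.42 and -0.54 at day 0, -0.06, -0.31, -0.30 and 0.11 at day 1, 0.19, -0.17, -0.24 and -0.11 at day 3, 0.06, 0.15, 0.00 and -0.37 at day 5, 0.25, 0.01 and 0.24 at day 10 and -0.14, 0.41 and 0.23 at day 17. Its other values were 0.00 and -0.14 in stationary phase, -0.01 and -0.01 in the chemostat and -0.16 and 0.02 in log phase. Both day 0 arrays lay below the other 24, and beads differed from log phase by 0.09 ± 0.17 (adjusted p = 0.706).

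In the lid RPN5 and RPN9, both scaffold subunits, took these places. RPN5 had array values of 0.15 and 0.11 at day 0, -0.31, 0.27, -0.60 and 0.19 at day 1, 0.55, -0.30, -0.29 and -0.84 at day 3, 0.32, 0.39, -0.03 and -0.87 at day 5, 0.16, 0.21 and 0.51 at day 10 and -0.55, 0.03 and -0.15 at day 17. Outside the beads its values were 0.32 and 0.19 in stationary phase, -0.55 and -0.34 in the chemostat and -0.30 and -0.59 in log phase. Arrays of days 3 and 5 ran from below all free cultures to above them, and the change of 0.38 ± 0.29 was not called (adjusted p = 0.294). RPN9 showed -0.03 and -0.39 at day 0, 0.21, 1.01, -0.11 and -0.02 at day 1, 0.26, 0.03, -0.35 and -0.26 at day 3, 0.18, 0.66, -0.14 and -0.47 at day 5, -0.09, -0.27 and 0.02 at day 10 and -0.37, 0.28 and 0.29 at day 17. Its free-cell arrays showed -0.61 and -0.50 in stationary phase, 0.03 and 0.16 in the chemostat and 0.12 and 0.15 in log phase. Stationary phase was lowest and replicate 2 of day 1 highest, and the change was -0.09 ± 0.26 (adjusted p = 0.798).

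BLM10 encodes an activator that caps the ends of the core, and ECM29 a protein that tethers the core to the 19S particle. BLM10 had log2 ratios of -0.12 and 0.18 at day 0, -0.10, -0.19, -0.15 and 0.11 at day 1, -0.14, 0.08, 0.13 and 0.39 at day 3, -0.74, -0.01, 0.20 and 0.17 at day 5, 0.17, 0.00 and 0.24 at day 10 and 0.20, 0.13 and 0.49 at day 17. Cultures of free cells had -0.03 and -0.37 in stationary phase, -0.15 and -0.05 in the chemostat and -0.73 and -0.72 in log phase. Its log-phase arrays were lower than all others but replicate 1 of day 5, which adds no support, since BLM10 was picked by its change from log phase. BLM10 was higher in beads by 0.80 ± 0.20 (1.74-fold, adjusted p = 0.0022), under the 2-fold minimum. ECM29 ran at -1.00 and -0.82 at day 0, 0.18, 0.72, 0.09 and -0.10 at day 1, 0.70, -0.09, -0.01 and -0.35 at day 3, 0.08, 0.84, 0.04 and 0.01 at day 5, -0.06, -0.20 and -0.05 at day 10 and 0.22, 0.07 and -0.07 at day 17. Free cells had -0.67 and -1.15 in stationary phase, 0.00 and -0.02 in the chemostat and 0.12 and 0.32 in log phase. Day 0 and stationary phase formed a low group below all other arrays, and beads did not differ detectably from log phase (-0.12 ± 0.24, adjusted p = 0.71). UMP1, the chaperone of core maturation, changed by 0.47 ± 0.27 (adjusted p = 0.16).

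The group means of the 36 proteasome genes lay farthest apart in stationary phase. Their SD was 0.50 there, 0.27 at day 0, 0.12 to 0.29 in the bead days, 0.22 in the chemostat and 0.42 in log phase (0.26 without RPN4). Over all genes the SD was 0.99 in stationary phase, 0.89 at day 0, 0.22 to 0.70 in the bead days, 0.83 in the chemostat and 1.07 in log phase. Each gene's median is over 26 arrays, 18 of them from beads. The small SDs of the bead days therefore cannot be set against those of the other groups. Against log phase 1 gene was called higher (RPN4, against 22.8% of all genes) and 4 were called lower (21.7% of all genes), namely PRE6, ECM29, RPN7 and PUP1. By the adjusted p alone 2 were higher (27.7% of all genes) and 9 lower (26.4%). The added genes were RPT6 (0.80 ± 0.23), higher, and PRE8, PRE3, RPT5, PRE7 and PRE2, lower at -0.84 to -0.62.

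In stationary phase the core classes had medians below 0 and most 19S classes above 0, which describes the counts without a test between classes. All 7 beta-ring genes had values below 0 in the change from log phase, with a median of -0.62; PUP1 passed both thresholds, and PRE2, PRE3 and PRE7 the adjusted p. PRE2, PRE3 and PUP1 carry the cutting sites of the core. The alpha ring had a median of -0.39, with 2 of 7 above 0. The ATPases had a median of 0.29 (3 of 6 above 0) and the lid 0.27 (5 of 8 above 0), against 0.04 over all genes. Within the ATPase ring RPT6 passed the adjusted p upward, RPT5 at -0.73 ± 0.25 downward, and RPT2 at 0.79 ± 0.35 did not pass.

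PRE6, an alpha-ring gene, was the lowest. Its log2 ratios were -0.07 and -0.59 at day 0, 0.46, 0.59, 0.19 and 0.02 at day 1, 0.04, 0.17, -0.82 and -0.28 at day 3, -0.05, 0.37, -0.71 and -0.62 at day 5, -0.03, -0.26 and -0.08 at day 10 and -0.51, 0.40 and 0.39 at day 17. Against these, free cells had -1.12 and -1.19 in stationary phase, 0.18 and 0.25 in the chemostat and 0.23 and 0.24 in log phase. Both stationary-phase arrays lay below the other 24. The change from log phase was -1.39 ± 0.36 (2.62-fold lower, adjusted p = 0.00328).

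RPN7, a lid subunit, had -0.77 and -0.81 in stationary phase, against 0.35 and 0.28 in log phase, a change of -1.10 ± 0.22 (adjusted p = 0.000325). PUP1 had -0.63 and -0.86 in stationary phase, against 0.34 and 0.35 in log phase, and its change was -1.09 ± 0.36 (adjusted p = 0.0165). ECM29 changed by -1.13 ± 0.32 (adjusted p = 0.00575). For all 4 genes the stationary-phase and log-phase arrays did not overlap, which adds no support, since the genes were picked by this change. The PUP1 call was lost without stationary phase replicate 2 and without either log-phase array, and the ECM29 call without stationary phase replicate 2 (-0.89); 3 of the 36 genes were then called. Quantile normalization repeated over the genes ended all 5 calls, while calls over all genes fell from 2421 to 623.

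Set against stationary phase, beads had more of several core genes. PRE6 was higher by 1.12 ± 0.27 (2.17-fold, adjusted p = 0.00217) and ECM29 by 1.01 ± 0.24 (2.02-fold, adjusted p = 0.00176), so 2 of 36 were called higher (11.8% of all genes) and 0 lower (14.4%). For both genes, which were picked by this change, all 18 bead arrays lay above the stationary-phase arrays. With no fold minimum 10 were higher (20.3% of all genes) and 3 lower (23.6%). The higher ones added PRE7 (0.97 ± 0.18), PRE8 (0.92 ± 0.19), RPN7 (0.84 ± 0.16), RPT5, UMP1, PUP1, PRE2 and PRE3, of which the last 5 rose by 0.49 to 0.78. The lower ones were the ATPase genes RPT6 (-0.72 ± 0.17) and RPT2 (-0.66 ± 0.25) and the lid gene RPN8 (-0.88 ± 0.35), the partner of the lid deubiquitinase Rpn11. In the beta ring 7 of 7 genes were above 0, with a median of 0.49. The median was -0.11 in the ATPases, -0.24 in the lid and -0.06 over all genes. These values share the stationary-phase arrays with the comparison against log phase, so the opposite signs are not separate evidence. ECM29 lost its call in 9 of 37 alternatives, among them without stationary phase replicate 2 (0.77) and without replicate 2 of day 1, replicate 1 of day 3, replicate 2 of day 5 or replicate 1 of day 17 (0.97 to 1.00), each of which leaves 1 call. Both calls ended with repeated quantile normalization, where calls over all genes fell from 1431 to 562.

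**Figure D3:**
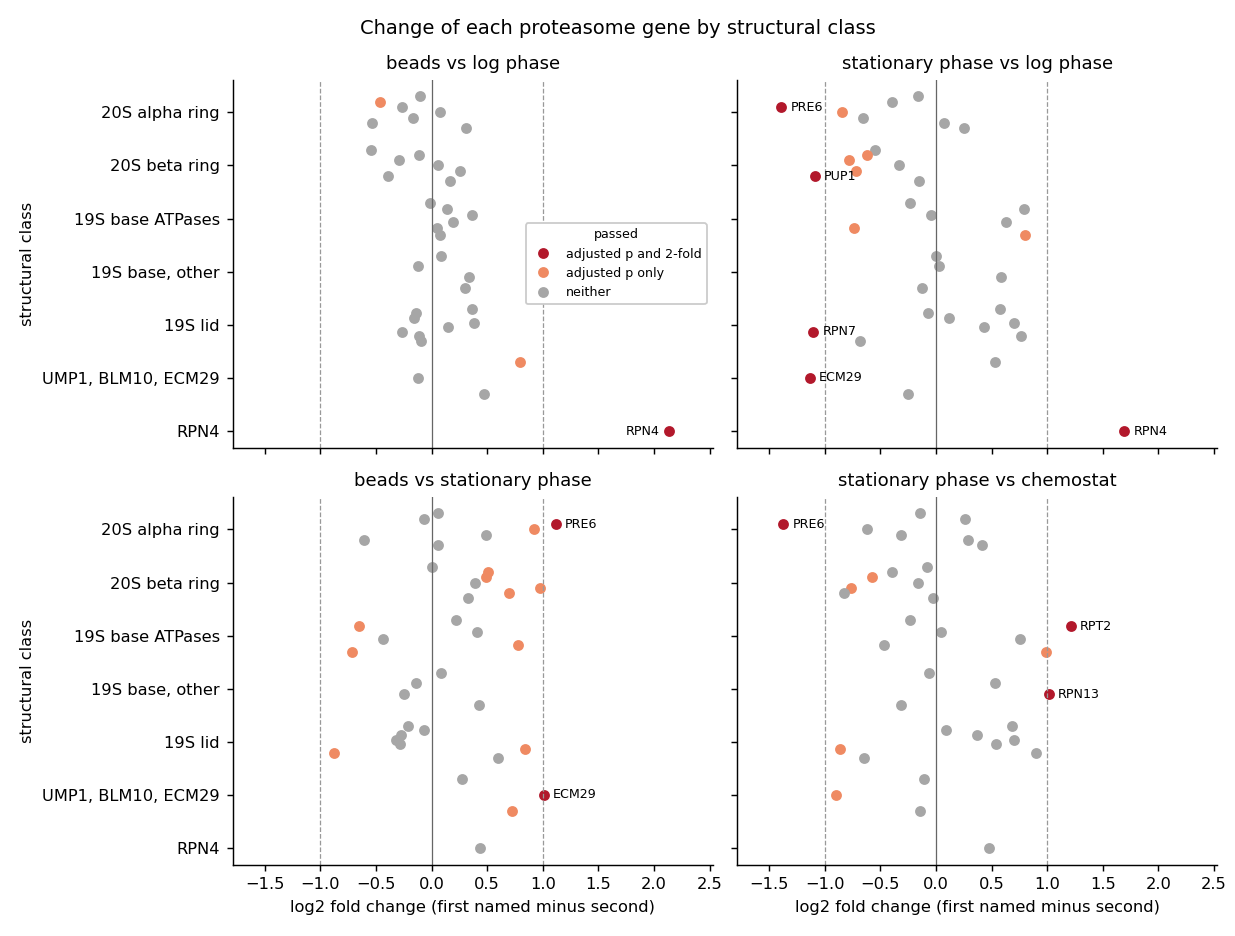
Log2 fold change (horizontal, first named group minus second) of each proteasome gene, 1 point per gene, by structural class (vertical) in 4 comparisons. Dashed lines mark a 2-fold change; dark red points passed both thresholds and are named, orange points passed the adjusted p only. In beads against log phase every point but RPN4 lies within the dashed lines, and in stationary phase the beta-ring points lie left of 0.

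Stationary phase also differed from the chemostat, the other slow or halted free culture. RPT2 had 0.80 and 0.76 in stationary phase, against -0.42 and -0.44 in the chemostat, and was higher by 1.21 ± 0.33 (2.32-fold, adjusted p = 0.00695). RPN13 was higher by 1.01 ± 0.39 (adjusted p = 0.0394) and PRE6 lower at -1.37 ± 0.36 (adjusted p = 0.00511). That made 2 of 36 called higher and 1 lower, against 17.4% of all genes in each direction. On the adjusted p alone the counts were 3 higher (21.6% of all genes) and 5 lower (22.2%), with RPT6 at 0.99 ± 0.23 and with RPN7, ECM29, PRE7 and PRE3 at -0.86, -0.90, -0.77 and -0.57. The RPN13 call was lost without any 1 of the 4 arrays compared, and each time another proteasome gene was called in its place, which left the count at 3. It was also lost with each array at a median of 0, where 2 calls were left. All 3 calls were lost with repeated quantile normalization, where calls over all genes fell from 1894 to 400.

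**Figure D4:**
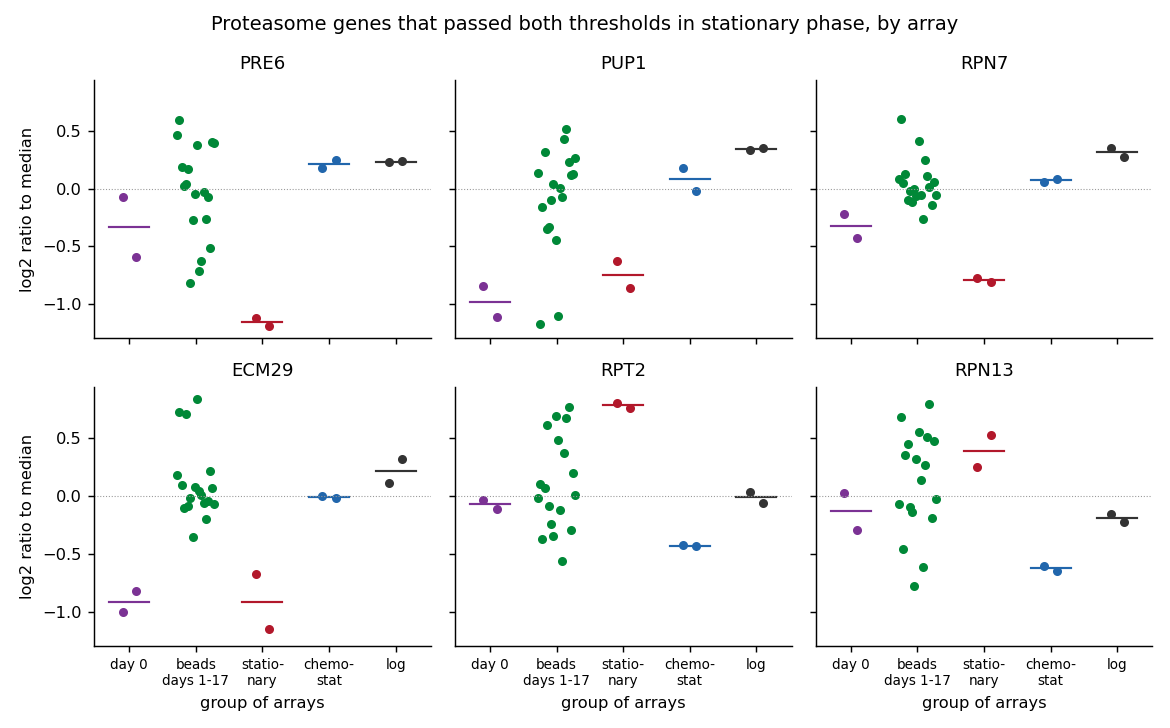
Log2 ratio to the gene's median (vertical) in each array by group (horizontal) for the 6 genes called in stationary phase besides RPN4; lines are means of groups of 2 arrays. PRE6, PUP1, RPN7 and ECM29 are low in the 2 stationary-phase arrays, and RPT2 and RPN13 are higher there than in the chemostat.

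Few genes of any kind were called between the chemostat and log phase. RPN4 was the 1 gene called higher (1.76% of all genes), and 0 were called lower (0.514% of all genes). By the adjusted p alone the counts were the same, 1 and 0 (1.85% and 0.569% of all genes). In either direction limma gave an unadjusted p under 0.05 for 3 of 36, against 611 of 5445 genes in all. The median change was -0.16, and 5 of 36 genes were above 0, against 2713 of 5445 genes in all. Beads against the chemostat gave 0 calls by limma (9.55% of all genes were higher and 9.94% lower). An unadjusted p under 0.05 was found for 6 of 36 and for 2398 of 5445 genes in all. With the fold minimum dropped, RPN4 and RPN13 (0.77 ± 0.29, adjusted p = 0.0461) were higher (2 of 36, against 16.3% of all genes) and 0 lower (17.6%). RPN4 was called here when the bead mean began at day 3, when it took days 10 and 17 alone, and without the bead array with the highest 3′ minus 5′ difference of each day.

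Day 0 had a higher RPN4 than log phase, while its lower proteasome genes were no larger a share than among all genes. Against log phase 1 of 36 genes was called higher (RPN4, against 18.6% of all genes) and 2 lower (17.8%). PUP1, the trypsin-like subunit gene, had -0.84 and -1.11 at day 0, against 0.34 and 0.35 in log phase, a change of -1.32 ± 0.36 (2.50-fold lower, adjusted p = 0.00589). ECM29 changed by -1.13 ± 0.32 (adjusted p = 0.00675). Without the fold minimum 2 were higher, BLM10 (0.76 ± 0.26) being the second (23% of all genes), and 7 lower (22%), with PRE3, RPT5, PRE5, RPN7 and RPT1 at -0.56 to -0.73. The median of the 36 changes was -0.35, and 0 of 7 alpha-ring genes and 1 of 7 beta-ring genes were above 0. Over all genes the median was 0.02, with 2757 of 5445 above 0. PUP1 lost its call without day 0 replicate 2, and ECM29 without log phase replicate 2.

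After 1 day in the beads ECM29 was 1.14 ± 0.28 higher than at day 0 (2.20-fold, adjusted p = 0.00386), the 1 gene of 36 called higher (9.97% of all genes), with 0 lower (10.3%). All 4 day 1 arrays of ECM29, picked by this change, lay above both day 0 arrays. RPN7 passed without the fold minimum (0.54 ± 0.19), which made 2 higher (15.3% of all genes) and 0 lower (14.6%). Of the 36 genes 30 were above 0, with a median change of 0.25, against 2656 of 5445 genes and a median of -0.03 in all. RPN4 differed by -0.04 ± 0.28 (95% interval -0.62 to 0.54). The ECM29 call was lost without day 0 replicate 1 or day 1 replicate 2, and with only these 2 groups in the model (adjusted p = 0.0708). Leaving out replicate 3 of day 1 gave 2 calls.

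Between day 1 and day 17 limma called 0 proteasome genes in either direction. An unadjusted p under 0.05 was found for 1 of 36 and for 1099 of 5445 genes in all. Few genes of any kind were called (0.257% higher and 0.0367% lower, with or without the fold minimum). For 33 of the 36 genes the 95% interval of the change from day 1 to day 17 lay within 2-fold, against 57.3% of all genes. RPN4 differed by 0.41 ± 0.25 (95% interval -0.10 to 0.92).

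Across the 5 bead days together limma's F-test called 0 of the 36 genes, against 20.9% of all genes. An unadjusted p under 0.05 was found for 4 of the 36 and for 2151 of 5445 genes in all. By the adjusted p alone RPT3 passed (1 of 36, against 26.2% of all genes; adjusted p = 0.024), with day means from -0.11 at day 1 to 0.76 at day 10. With array weights, or without replicate 4 of day 1, 2 genes were called.

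Day 10 was the highest bead day for most proteasome genes. This comparison was chosen after the values were seen, so its counts are a description of the pattern that led to it. The median over the 36 genes was 0.34 at day 10, against -0.05, -0.06, -0.01 and 0.07 at days 1, 3, 5 and 17, and 30 of 36 genes were above 0. Over all genes the day 10 median was -0.03, with 2585 of 5445 above 0. Against the mean of the other bead days 0 of 36 were called by limma in either direction (6.92% of all genes were higher and 8.37% lower). An unadjusted p under 0.05 was found for 19 of 36 and for 2595 of 5445 genes in all. With no fold minimum 12 were higher (16.1% of all genes) and 1 lower (21.7%). The greatest difference was that of RPN11, the lid deubiquitinase gene (0.76 ± 0.28). The ATPase genes RPT3 (0.65 ± 0.16), RPT2 (0.60 ± 0.21), RPT4 (0.59 ± 0.22), RPT5 (0.50 ± 0.16) and RPT1 (0.35 ± 0.13) were also higher, 5 of 6, while RPT6 stood at 0.02. The others were RPN4 (0.56 ± 0.20), SCL1, PRE5, PRE4, RPN6 and PRE2. PRE1 alone passed downward, at -0.74 ± 0.26.

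The day 10 calls were sensitive to arrays and scaling, over all genes as well. Without the bead array with the highest 3′ minus 5′ difference of each day (5 arrays left out) 0 of 36 genes passed in either direction even without the fold minimum. Over all genes 585 then passed, against 2053 with all arrays. The median difference of the 36 was then 0.26, against 0.39 with all arrays, and 29 of 36 genes were above 0, against 31. With repeated quantile normalization 0 of 36 passed as well, against 823 over all genes. The median of the 36 was then 0.36, with 32 above 0.

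**Figure D5:**
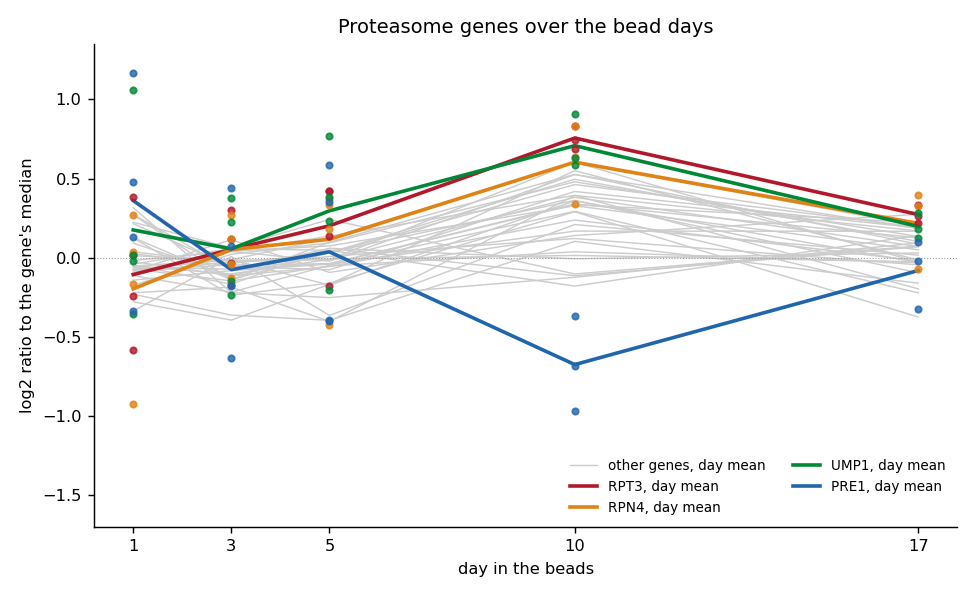
Log2 ratio to the gene's median (vertical) by day in the beads (horizontal): lines join day means of the 36 proteasome genes, and points show single arrays of the 4 coloured genes. Most lines are highest at day 10, where PRE1 is lowest at -0.68, and the arrays of RPN4 and PRE1 at day 1 span more than 1 log2 unit.

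Within single days the level of the proteasome genes was set beside RNA quality, as a description without a test. In 4 of the 5 bead days the array with the highest 3′ minus 5′ difference also had the lowest median over the 36 genes. At day 1 it was replicate 3, with a difference of 0.605 and a median of -0.288; at day 3 replicate 4, with 0.329 and -0.229; at day 5 replicate 4, with 0.568 and -0.406; at day 17 replicate 1, with 0.448 and -0.160. At day 10 it was not, and the day 10 group mean of that difference, 0.106, lay among those of the other bead days (0.0234 to 0.299). The part of RNA quality in the day 10 and bead results was not tested, and the same count was not made for other genes.

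Some genes departed from their own day in replicate 2 of days 1 and 5. RPN10, a ubiquitin receptor of the base, had -1.68 and -1.28 in these 2 arrays, against -0.25 to 0.47 in the other 10 arrays of days 1, 3 and 5. PUP1 had -1.17 and -1.10 there, against -0.44 to 0.31. UMP1 had 1.06 and 0.77 there, the 2 highest of those 12 arrays. These 3 genes were picked after their values were seen, and the means of days 1 and 5 for them rest in part on these arrays.

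Other genes of the ubiquitin pathway, 54 taken from lists of assembly chaperones, bound proteins, ubiquitin enzymes, shuttles and regulators of RPN4 serve as context. Their range over the 9 group means had a median of 1.36, against 0.99 for the 36 proteasome genes and 1.64 for all genes. In beads against log phase 9 of 54 were called higher (15.9% of all genes were) and 2 lower (14.7%). The greatest changes were in POC4, an assembly chaperone of the alpha ring (-1.88 ± 0.24), UBC5, a stress-linked ubiquitin-conjugating enzyme (1.77 ± 0.33), and PIB1, a ubiquitin ligase of endosomes and vacuole (1.59 ± 0.26). Of the 5 regulators of RPN4, PDR1, which activates RPN4 transcription, was higher by 1.37 ± 0.24 and MUB1, which takes part in the degradation of Rpn4, by 1.58 ± 0.27. YAP1, PDR3 and HSF1 were not called. The regulators were named after their values were seen, and a link to the RPN4 change was not tested. With repeated quantile normalization POC4 and MUB1 were the 2 of these 11 calls that remained.

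In stationary phase against log phase 16 of the 54 were called higher (22.8% of all genes) and 5 lower (21.7%). SPG5, a proteasome-binding protein of stationary phase, was higher by 3.08 ± 0.38, PIB1 by 2.24 ± 0.35 and UBC8, which serves the degradation of a gluconeogenic enzyme, by 2.04 ± 0.67. Of the regulators of RPN4 4 of 5 were called higher, HSF1 (1.75 ± 0.49), YAP1 (1.36 ± 0.37), PDR1 (1.08 ± 0.33) and MUB1 (1.06 ± 0.37). Repeated quantile normalization left 4 of the 21 calls, POC4, SPG5, UBC4 and PIB1, and thus none of the regulators. PDR1 and MUB1 also lost theirs without log phase replicate 2 or stationary phase replicate 1, and UBC8 without log phase replicate 1 or either stationary-phase array. At day 0 against log phase 8 were higher (18.6% of all genes) and 3 lower (17.8%), with POC4 at -2.35 ± 0.32, UBC5 at 2.15 ± 0.44 and SPG5 at 2.08 ± 0.38. Of these 11 calls 4 remained with repeated quantile normalization, those of POC4 and SPG5 among them but not that of UBC5. In the chemostat against log phase limma called 0, with 5 of 54 at an unadjusted p under 0.05 (611 of 5445 genes in all).

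Beads against stationary phase had 2 of 54 higher (11.8% of all genes) and 5 lower (14.4%), among them HSM3, a chaperone of base assembly (-2.00 ± 0.22), UBC8 (-1.80 ± 0.50) and SPG5 (-1.54 ± 0.29). The call of UBC8 was lost without either stationary-phase array, and repeated quantile normalization left HSM3 and UBC4, 2 of the 7. Against the chemostat 5 were higher in beads (9.55% of all genes) and 2 lower (9.94%), led by POC4 (-1.40 ± 0.24), UBC7, an enzyme of endoplasmic reticulum degradation (1.23 ± 0.23), and CIC1, a proteasome adaptor (-1.10 ± 0.37). CIC1 lost its call with the replicate block, without either chemostat array and with repeated quantile normalization, which left 5 of these 7 calls. Stationary phase against the chemostat had 9 higher and 4 lower (17.4% of all genes in each direction), with SPG5 at 2.32 ± 0.38, the cell cycle enzyme CDC34 at 2.25 ± 0.48 and UBC8 at 2.02 ± 0.67. The call of UBC8 was lost without any 1 of the 4 arrays compared, and HSM3 and SPG5 were the 2 of 13 calls left by repeated quantile normalization.

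At day 1 against day 0, 1 of the 54 was higher (9.97% of all genes) and 3 lower (10.3%), with SPG5 at -1.18 ± 0.33, the ligase gene SSM4 at 1.13 ± 0.18 and the shuttle gene DDI1 at -1.08 ± 0.27. All 4 calls were lost with repeated quantile normalization. Those of SPG5 and DDI1 were also lost with only these 2 groups in the model, without day 1 replicate 3 and without the bead array with the highest 3′ minus 5′ difference of each day. SPG5 further lost its call without either day 0 array, SSM4 without day 0 replicate 1, and DDI1 without day 1 replicate 2 and with array weights. Between day 17 and day 1 limma called 0, with 9 of 54 at an unadjusted p under 0.05 (1099 of 5445 genes in all). Across the 5 bead days 8 were called (20.9% of all genes), and the widest ranges of day means were those of UFD1, a cofactor of the Cdc48 segregase (1.79), RAD6, a partner of Mub1 in Rpn4 degradation (1.70), and PIB1 (1.39). All 8 calls were lost without the day 10 arrays, and all 8 without the bead array with the highest 3′ minus 5′ difference of each day. UFD1 and PIB1 also lost theirs without day 10 replicate 2, and PIB1 without replicate 3. Repeated quantile normalization left 2 of the 8, PIB1 and HSM3. At day 10 against the other bead days 4 were higher (6.92% of all genes) and 2 lower (8.37%), led by UFD1 (1.37 ± 0.27), RAD6 (1.27 ± 0.25) and CDC34 (1.24 ± 0.31).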

How the data were processed

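The 26 arrays (Affymetrix, yeast) fall into 9 groups. Per the submitters' processing notes RMA was used, its version being not given in the sources used here. What the authors deposited are linear ratios of a probe set to its own median over the 26 arrays: probe set medians lie between 0.9905 and 1.047 and array medians between 0.998 and 1. The absolute signal is not in them. Precision is limited by the number of arrays.

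The deposited ratios were put on the log2 scale. The platform annotation tied 5498 probe sets to exactly 1 gene of Saccharomyces cerevisiae, or 5449 genes. Of 47 genes with several probe sets, that of highest mean ratio was kept, and 4 genes with missing values were left out. All 36 members have 1 probe set, without the suffix that marks cross-binding probes. A model of 9 group means was fitted with limma 3.58.1 (lmFit, eBayes) in R 4.3.3. The spread of a gene was estimated once over all groups, and the bead mean weights its 5 days equally. A call needs an adjusted p (Benjamini-Hochberg) below 0.05 and a change of 1 or more on the log2 scale. Differences among bead days were tested with limma's F-test. The procedure was tested on simulated data.

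Members, lists and comparisons were chosen with earlier results of these data known. All members may be named. Values in every array are given for RPN4, for the gene with the greatest and with the least absolute change between beads and log phase in each class, and for genes called against most others. Other pathway genes are the 3 with the greatest absolute called change per comparison, and regulators of RPN4 were named beside them after their values were seen. Alternatives were repeated quantile normalization, arrays shifted to a median of 0, the mean of a gene's probe sets, a fit of only the groups compared, array weights, a robust and trended prior, no fold minimum, the replicate block, other sets of bead days and leaving out each array. Chosen after seeing the data were the day 10 comparison, leaving out day 10, and leaving out the bead array with the highest 3′ minus 5′ difference of each day. Same-numbered arrays deviated together in every pair between days 3 and 5 (correlations 0.548 to 0.864) but in no other combination of groups. Replicate 2 also did so between days 1 and 5 (0.756), days 5 and 17 (0.501) and days 1 and 3 (0.444). The design without the block was kept, since the labels do not say that replicate numbers mark a shared culture. It treats the bead arrays as independent. Where they deviate together, the SEs and p-values of the bead means can be too small. Promoter and protein sequences were not used here. Plots were made with matplotlib 3.10.9 (Python 3.11.15).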

Additional observations from a re-analysis of the deposited data

Results flagged for a closer look

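ECM29, the gene of the protein that tethers the core to the 19S particle, had a log2 ratio of 0.84 in replicate 2 of bead day 5, while the other 3 arrays of that day lay between 0.01 and 0.08. The gap was 0.917 of the range of the 4 arrays, above the limit of 0.829 for 4 values. The same was asked of 14 genes and of the median over the 36 proteasome genes at the 3 bead days with 4 arrays, 45 groups in all, and this was the 1 that passed. Chance alone is set to pass about 1 in 20 such groups. Replicate 2 also held the highest ECM29 value of day 1, 0.72. The call of ECM29 in beads against stationary phase is lost without this array, at 0.97.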

How the results depend on the processing

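Changes below 2-fold in these genes are small beside the spread of bead arrays of 1 day, the 4 groups with 2 arrays each rest on the spread of the other groups, and no brightness was available to set a filter on dim probe sets. No direction of a called gene reversed under any alternative. All counts are of the 36 proteasome genes. Without the fold minimum they were 3 for beads against log phase, 13 against stationary phase and 2 against the chemostat, 11 for stationary phase and 9 for day 0 against log phase, 8 for stationary phase against the chemostat, 2 for day 1 against day 0 and 1 among bead days. With repeated quantile normalization, which gives all arrays 1 spread, they were 0 for beads against stationary phase, stationary phase against log phase and against the chemostat, chemostat and day 0 against log phase, and day 1 against day 0. With array weights they were 1 for beads against stationary phase and 2 among bead days. The trended and robust prior gave 0 for chemostat against log phase, and the fit with only the groups compared gave 0 for day 1 against day 0. The replicate block gave 0 for chemostat against log phase, 3 for beads against stationary phase, 2 for day 1 against day 0 and 1 among bead days, and 1 for beads against log phase, as without the block. With each array at a median of 0, stationary phase against the chemostat had 2. A bead mean from day 3 on gave 1 against stationary phase and 1 against the chemostat, and a mean of days 10 and 17 gave 5 and 1. Leaving out the bead array with the highest 3′ minus 5′ difference of each day gave 1 for beads against the chemostat, 3 against stationary phase and 2 for day 1 against day 0. Leaving out single arrays gave 1 to 3 for beads against stationary phase, 3 to 5 for stationary phase against log phase, 0 to 1 for chemostat against log phase, 2 to 4 for day 0 against log phase, 0 to 2 for day 1 against day 0 and 0 to 2 among bead days, and it did not move the 1 of beads against log phase, the 0 of beads against the chemostat, the 3 of stationary phase against the chemostat or the 0 of day 17 against day 1. Over all genes quantile normalization left 516 calls for beads against log phase, against 1662, and 10 for chemostat against log phase, against 124. It left 557 for beads against the chemostat, against 1061, and 429 for day 1 against day 0, against 1106. The cause of these differences was not tested.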
